A study of Mus musculus with 4 samples.

Results

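The 8 genes described here are S100a8 and S100a9, Retnlg (resistin-like gamma, a neutrophil-enriched secreted protein), Csf3r (the receptor of granulocyte colony-stimulating factor), Il1b (interleukin 1 beta), Il1r2 (the decoy receptor), Cxcr2 and Cxcl2 (a ligand of CXCR2). They were taken by symbol from the 32285 genes of the feature tables, and each symbol was found. Of the 8, 5 had at least 100 UMIs (unique molecular identifiers, each tagging a captured mRNA molecule) over the summed libraries of the comparison of spot groups below and entered its test. Retnlg, Cxcr2 and Cxcl2 fell under that minimum.

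Neutrophils are the first leukocytes to enter an infarcted heart. They leave the bone marrow under granulocyte colony-stimulating factor, follow chemokines that CXCR2 on their surface reads, and carry large amounts of the calcium-binding proteins S100A8 and S100A9, which are released as alarmins and also occur in monocytes. Interleukin 1 beta, made by neutrophils and monocytes, calls in further leukocytes, and the decoy receptor IL1R2 binds it without signaling.

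The hearts came from ICR mice of 12 weeks whose left anterior descending coronary artery had been tied off for good, and Visium slides measured mRNA in 1 fresh-frozen section of 10 µm from 1 mouse on each of days 1, 4, 7 and 14. All 4 mice were infarcted, and no unoperated or sham heart is among the sections. Each Visium spot is a patch of barcoded slide that can hold several cells, so a spot is not a cell and the section is the only replicate. The sections held 2151, 2026, 2184 and 2741 spots with 12640454, 15572491, 10983077 and 17315715 UMIs on days 1, 4, 7 and 14, and 1332 of 3178 different barcodes occurred in all 4, since a barcode marks a position on the slide.

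The label of these genes was only partly met by other neutrophil markers. Ly6g, the usual surface marker of mouse neutrophils, had no UMI on days 1, 4 and 7 and 2 UMIs on day 14, where a count of 0 allows up to 0.237, 0.193 and 0.273 CPM (UMIs per 1000000 UMIs of the section) on days 1, 4 and 7. Elane, a protease gene of immature neutrophils, had none in any section. Mmp8, a neutrophil collagenase, had 12, 3, 1 and 1 UMIs on days 1, 4, 7 and 14, and Cd177 had 9, 2, 3 and 3. Since a spot pools cells, fewer cells of a type and less RNA per cell cannot be told apart.

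The sequences before the starts of 4 of these genes are shown because S100a8 and S100a9 had the highest correlation with each other of all genes compared, and Il1b and Cxcl2 stand for the interleukin 1 and chemokine arm. S100a8 (chromosome 3, 90668978 to 90670035, plus strand) and S100a9 (chromosome 3, 90692632 to 90695721, minus strand) lie 22596 bases apart on GRCm38, the mm10 build. Each stretch is RefSeq sequence of GRCm38.p6 from before the gene's start, 5′ to 3′ on the gene's own strand, and it stops before the start that GENCODE gives where that lies further upstream. Il1b (129364570 to 129371139, minus strand) and Cxcl2 (90903871 to 90905938, plus strand) lie on chromosomes 2 and 5, Retnlg (48872621 to 48874496) on 16, Csf3r (126024550 to 126044440) on 4, and Il1r2 (40074079 to 40125231) and Cxcr2 (74153989 to 74161246) on 1. Capitals mark the letters that matched a searched motif on either strand.
S100a8, chr3:90668821-90668977, plus strand: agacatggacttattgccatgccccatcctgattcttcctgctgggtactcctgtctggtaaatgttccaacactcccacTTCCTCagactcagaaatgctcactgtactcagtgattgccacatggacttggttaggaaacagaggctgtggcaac
S100a9, chr3:90695722-90695971, minus strand: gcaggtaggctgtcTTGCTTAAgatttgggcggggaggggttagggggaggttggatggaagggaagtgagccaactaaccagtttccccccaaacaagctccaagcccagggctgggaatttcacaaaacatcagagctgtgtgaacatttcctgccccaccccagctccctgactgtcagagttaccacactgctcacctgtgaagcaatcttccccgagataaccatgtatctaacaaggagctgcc
Il1b, chr2:129371140-129371389, minus strand: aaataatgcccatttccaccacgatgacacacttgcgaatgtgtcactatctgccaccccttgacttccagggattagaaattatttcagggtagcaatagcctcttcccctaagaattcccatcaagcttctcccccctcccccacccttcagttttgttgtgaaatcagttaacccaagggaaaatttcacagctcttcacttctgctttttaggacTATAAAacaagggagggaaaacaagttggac
Cxcl2, chr5:90903649-90903870, plus strand: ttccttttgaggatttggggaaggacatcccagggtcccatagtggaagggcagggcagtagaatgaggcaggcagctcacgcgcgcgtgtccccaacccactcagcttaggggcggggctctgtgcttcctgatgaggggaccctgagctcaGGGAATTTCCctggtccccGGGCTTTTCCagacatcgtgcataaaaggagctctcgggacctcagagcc

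Over the full 250-base windows, the NF-kB motif (GGG, any pair of letters, then TTTCC) occurred in 1.41% of 32851 promoters and, among the 8 genes, before Cxcl2 alone, where it occurred at 97 to 88 and at 78 to 69 bases before the RefSeq start. The C/EBP letters TTGCNNAA occurred in 9.56% of promoters and before S100a9 and Retnlg. The PU.1 letters GAGGAA occurred in 23.3% of promoters and before S100a8, Csf3r and Cxcr2. The TATA box letters TATAAA occurred in 12.4% of promoters and before Il1b and S100a8, in S100a8 within the bases not printed. These are matches of letters and not measured binding sites.

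Over the 4 days, each of the 8 genes had its highest level on day 1. S100a8 had 645, 126, 93 and 213 UMIs on days 1, 4, 7 and 14, or 51.0, 8.09, 8.47 and 12.3 CPM. S100a9 stood at 61.1 (772 UMIs), 7.06 (110), 10.9 (120) and 13.1 (226) CPM on the same days. Both alarmin genes were high on day 1 and low on the other days, and day 14 lay above day 4 for both, which rests on 6 spots of day 14 described below. The exact Poisson 95% intervals of S100a8 were 47.2 to 55.1 on day 1 and 6.74 to 9.63 on day 4, and they cover counting error only, as do all intervals below.

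The interleukin 1 genes were also highest on day 1. Il1b stood at 7.91, 2.50, 3.73 and 1.56 CPM on days 1, 4, 7 and 14, from 100, 39, 41 and 27 UMIs. Il1r2, its decoy receptor, stood at 5.14, 1.80, 1.27 and 0.520, from 65, 28, 14 and 9 UMIs. Day 1 was the highest section for both, and the intervals of Il1b on days 4 and 7 overlapped (1.78 to 3.42 and 2.68 to 5.06).

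For the receptors and the chemokine each later section stood below the one before. Csf3r stood at 8.94, 5.33, 4.01 and 1.96 CPM on days 1, 4, 7 and 14, from 113, 83, 44 and 34 UMIs. Cxcr2 stood at 3.80, 1.03, 0.728 and 0.347, from 48, 16, 8 and 6 UMIs. Cxcl2, the ligand, had 18, 11, 2 and 1 UMIs, and Retnlg had 49, 9, 7 and 14. Retnlg resembled the alarmin genes in that its level on day 14 (0.809 CPM) was not below that on day 4 (0.578), although the intervals of these sections overlapped. Without the spots rich in S100a8 and S100a9 described below, its ratio of day 4 over day 14 was 1.11 (0.391 to 3.16), from 9 UMIs each.

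**Figure D1:**
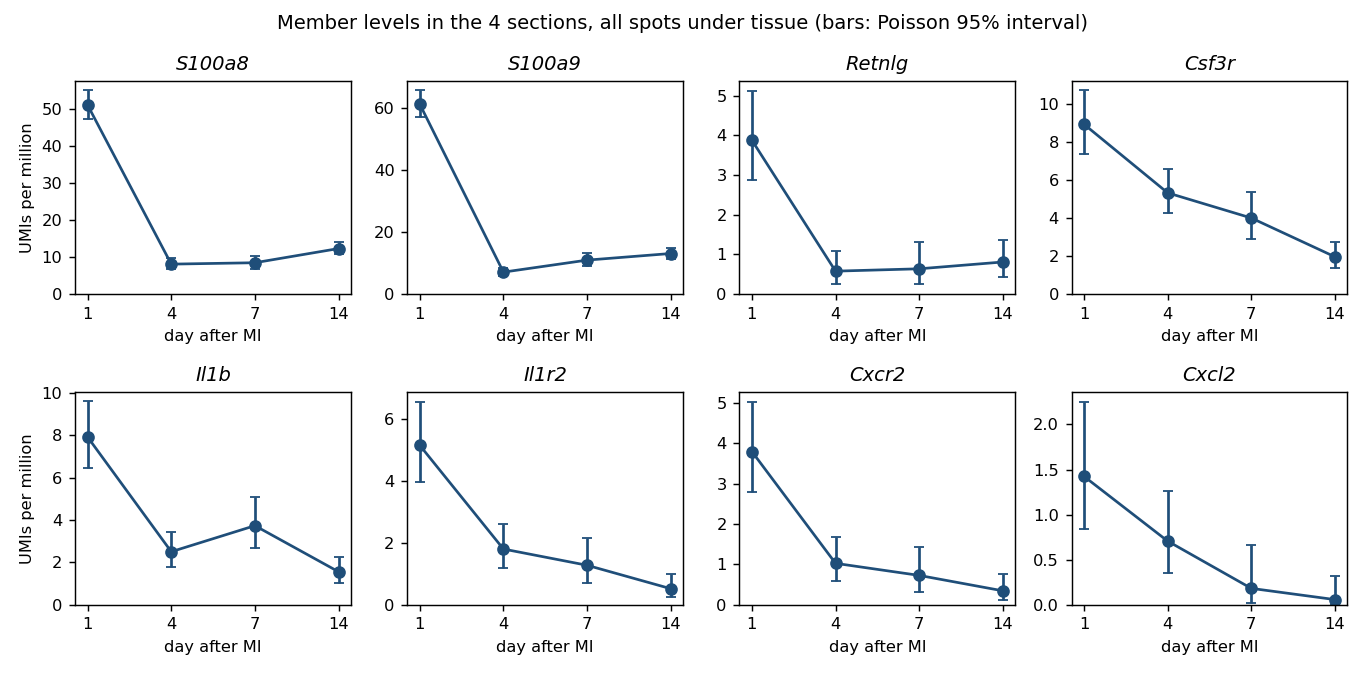
CPM (vertical axis, linear, different range per panel) of each gene in the 4 sections by day after MI (horizontal axis, days equally spaced), with exact Poisson 95% intervals as bars. Day 1 is highest in every panel, S100a8 at 51.0 against 8.09 and Csf3r at 8.94 against 5.33 on day 4.

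With 1 mouse a day, the difference between days has no replicate check and was not tested. As a description, all 8 genes were at least 2-fold higher on day 1 than on day 14, against 7.99% of the 11783 genes with at least 100 UMIs. Retnlg, Cxcr2 and Cxcl2 had fewer than 100 UMIs over the 4 sections and are not in that background, here and below. S100a8 had a ratio of 4.15 (exact conditional 95% interval 3.55 to 4.87), which was 7.35 without the 6 day 14 spots described below and 2.23 within the spots poorest in Myh6 and Myl2 alone. For Il1r2 it was 9.89 (4.90 to 22.6). Against day 4, 7 of the 8 were at least 2-fold higher on day 1 (1.72% of all genes), the exception being Csf3r at 1.68 (1.25 to 2.25). Cxcl2 was only just past that fold, at 2.02 (0.902 to 4.72). Against day 7 all 8 were past it (1.54% of all genes). Within the spots poorest in Myh6 and Myl2 alone, Il1b (1.57, 0.994 to 2.55) and Csf3r (1.86) were not past it against day 7, while the other genes were. Against day 4, Cxcl2 was at 1.51 in those spots. The median log2 ratio of all genes was -0.04, -0.14 and 0.23 for day 1 over days 4, 7 and 14.

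The sections differed in how the genes were balanced, in part through a few spots. Per 100 UMIs of S100a8 and S100a9 there were 7.97, 35.2, 20.7 and 7.74 Csf3r UMIs on days 1, 4, 7 and 14. Il1b gave 7.06, 16.5, 19.2 and 6.15 UMIs on the same scale. Without the spots of 10 or more S100a8 and S100a9 UMIs described below, the day 14 values were 17.2 for Csf3r and 13.1 for Il1b, those of day 7 were 25 and 23.3, those of day 1 were 8.78 and 7.13, and day 4 had no such spot. S100a8 and S100a9 together made up 78.3% (95% Clopper-Pearson interval 76.3 to 80.2), 55.9% (51.0 to 60.7), 64.7% (59.3 to 69.9) and 82.8% (79.3 to 85.9) of the UMIs of the 8 genes on days 1, 4, 7 and 14, and 70.0% on day 14 without those spots. Between days 4 and 14, S100a8 had a ratio of 0.658 (0.523 to 0.824) for day 4 over day 14, whereas for Csf3r it was 2.71 (1.80 to 4.17) and for Il1r2 3.46 (1.59 to 8.33). Without those spots the S100a8 ratio turned to 1.35 (1.03 to 1.76), and Csf3r and Il1r2 kept 2.71 and 3.46. The spots were picked by S100a8 and S100a9 counts, and day 4 had none, so this turn is a description only.

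Markers of monocytes and macrophages, all 11 of which were found with UMIs, summed to 632, 1996, 1394 and 549 CPM on days 1, 4, 7 and 14. Most of that sum was Lyz2, at 322, 1443, 932 and 347 CPM, whereas Plac8 (23.7, 13.4, 6.92 and 2.08), Ccr2 (15.7, 11.8, 7.83 and 2.14) and Ly6c2 (6.96, 1.80, 0.455 and 1.21) were highest on day 1. Platelet markers (5 of 5 found) summed to 86.2, 98.2, 47.9 and 35.7, and lymphocyte markers (6 of 6) to between 3.12 and 4.59. The part of these cell types in the levels of the 8 genes was not tested.

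The share of spots with at least 1 UMI followed the levels on day 1 but not on day 14. S100a8 or S100a9 was found in 27.8% (Clopper-Pearson 95% interval 25.9 to 29.7), 8.39% (7.22 to 9.68), 4.85% (3.99 to 5.84) and 4.96% (4.18 to 5.84) of spots on days 1, 4, 7 and 14. Depth differs between sections, and thinning spots to 1000 UMIs brought these shares to 10.0%, 1.86%, 1.67% and 1.81%, and thinning to 2000 UMIs to 14.8%, 3.33%, 2.47% and 1.62%. Spots with fewer UMIs than the thinning depth were left out, so the scales cover different sets of spots. Day 1 was highest on each scale. Il1b was found in 3.77%, 1.88%, 1.47% and 0.876% of spots.

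On day 14 the alarmin UMIs were packed into a few spots. Spots with 10 or more UMIs of S100a8 and S100a9 together, a limit chosen after their values were seen, numbered 16, 0, 1 and 6 on days 1, 4, 7 and 14. The 6 spots of day 14, of 2741, held 241 of the 439 S100a8 and S100a9 UMIs (54.9%), whereas the 16 spots of day 1 held 210 of 1417 (14.8%). The richest day 14 spot had 33 S100a8 and 37 S100a9 UMIs among only 1841 UMIs. Without such spots the summed level of the pair was 96.3, 15.2, 16 and 11.4 CPM on days 1, 4, 7 and 14, so day 14 was then the lowest section. The ratio of day 1 over day 14 for S100a8 then rose from 4.15 to 7.35, and for S100a9 from 4.68 to 9.59. Since the spots were picked by the counts of these genes, all levels and ratios given without them are a description only.

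The rich spots of day 14 also held most UMIs of some, but not all, neutrophil granule genes. Camp, Ngp and Ltf encode proteins that neutrophils pack into secondary granules while they mature in the bone marrow, and they were not used to pick the spots. All 6 spots of day 14 had at least 1 UMI of them, and together held 62 of that section's 92 UMIs (67.4%). The 1 rich spot of day 7, which was rich in hemoglobin too, held 7 of 11 such UMIs. On day 1, in contrast, the 16 rich spots held 1 of only 2 Camp, Ngp and Ltf UMIs in the whole section. The section of day 4 had 9 such UMIs. Lcn2, another granule gene, differed, with 6 of 63 UMIs in the 6 spots of day 14 and 15 of 1305 in the 16 of day 1.

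Other members were also counted in these spots. On day 14 these spots held 5 of 14 Retnlg UMIs, but 1 of 27 Il1b, 0 of 34 Csf3r and 0 of 6 Cxcr2 UMIs. On day 1 they held 8 of 49 Retnlg, 14 of 100 Il1b, 7 of 113 Csf3r and 3 of 48 Cxcr2 UMIs. The spots were shallow on day 14 (median 1803 UMIs, 5 of 6 in the group of spots poorest in Myh6 and Myl2, Q1 below) and deep on day 1 (median 7596.5 UMIs, 13 of 16 in Q1).

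**Figure D2:**
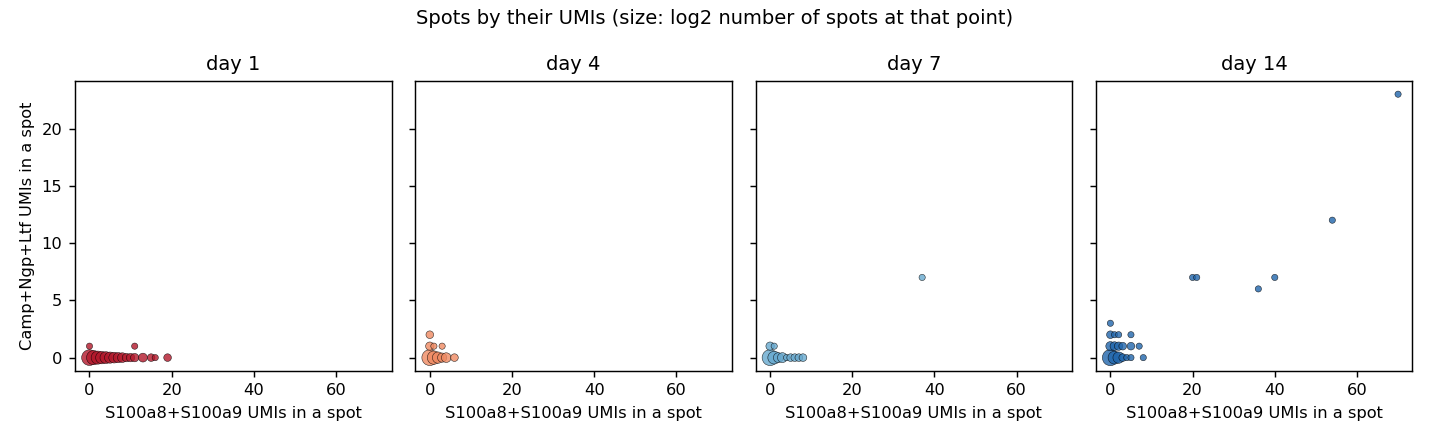
Each point is a pair of values found in spots of a section: S100a8+S100a9 UMIs in the spot (horizontal axis) and Camp+Ngp+Ltf UMIs in the same spot (vertical axis), with point size growing with the log2 number of spots. On day 1 values ran along the horizontal axis up to 19 UMIs with almost no granule UMIs, while on day 14 6 spots with up to 70 S100a8+S100a9 UMIs also held granule UMIs.

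To place the genes in the tissue, spots with at most 1% of UMIs from hemoglobin genes (7503 of 9102) were ranked within each section on the share of UMIs from Myh6 and Myl2, which encode myosin chains of cardiomyocytes, and split into 4 groups of equal size, Q1 with the lowest share to Q4 with the highest. In Q1 the median share was 0.755%, 0.154%, 0.200% and 1.01% on days 1, 4, 7 and 14, and in Q4 it was between 2.53% and 2.78%. Q1 was shallow on days 7 and 14, with medians of 2826 and 2329.5 UMIs per spot against 5515 and 8278 in Q4. Its spots were also mixed, with the sum of 5 skeletal muscle markers at 11779 CPM on day 7 and between 2.88 and 5.44 on the other days.

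The 8 genes lay mainly in Q1, the spots poorest in Myh6 and Myl2. S100a8 stood at 161.5, 25.4, 21.8 and 72.5 CPM in Q1 on days 1, 4, 7 and 14, and at 6.88, 3.69, 3.84 and 1.19 in Q4. S100a9 stood at 187, 22.5, 33.3 and 78.2 in Q1 and at 8.94, 3.16, 4.22 and 0.952 in Q4. In each of the 4 sections Q1 was above Q4 for both genes, and the values of both groups did not overlap over sections. In the next group, Q2, S100a8 stood at 35.7 on day 1 and at 4.54, 3.08 and 2.33 on days 4, 7 and 14. The day 14 value of Q1 rests on few spots: S100a8 and S100a9 together stood at 151 CPM there, and at 54.4 without the spots of 10 or more UMIs, against 2.14 in Q4.

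The share of spots showed the same order. S100a8 or S100a9 was found in 67.9%, 21.9%, 10.4% and 11.5% of Q1 spots on days 1, 4, 7 and 14 and in 6.99%, 4.53%, 1.95% and 1.73% of Q4 spots, whose cardiomyocyte-rich tissue serves as the background. Median depths were 6389, 6524.5, 2826 and 2329.5 UMIs in Q1 and 5971, 9221, 5515 and 8278 in Q4. Thinned to 1000 UMIs, the shares were 28.1%, 5.14%, 4.57% and 7.40% in Q1 and 1.65%, 0.594%, 0.566% and 0.181% in Q4, so Q1 stayed above Q4 in each section. Spots under 1000 UMIs were left out of the thinned shares. On days 1, 4, 7 and 14 these were 22, 5, 47 and 141 spots in Q1 and 2, 1, 1 and 8 in Q4.

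Il1b stood at 27.8, 10.2, 17.7 and 8.64 CPM in Q1 and at 0.344, 0.263, 1.15 and 0.952 in Q4. Il1r2 stood at 17.9, 7.61, 6.80 and 2.88 in Q1, against 1 UMI on days 1, 4 and 14 and none on day 7 in Q4. For both interleukin 1 genes Q1 was above Q4 in each section, and the lowest values of Q1, on day 14, still exceeded the highest values of Q4.

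Csf3r stood at 27.8, 18.1, 15.0 and 5.76 CPM in Q1, and had 0, 4, 5 and 7 UMIs in Q4, which made Q1 at least 26.9-fold higher on day 1 (against 3 counts in Q4). Cxcr2 had 35, 10, 4 and 1 UMIs in Q1 against 2, 1, 1 and 1 in Q4. Cxcl2 had 15, 10, 1 and 1 UMIs against none in Q4 of any section, so it was at least 5.31-fold and 4.59-fold higher in Q1 on days 1 and 4. Retnlg had 27, 1, 2 and 8 UMIs in Q1 and 2, 3, 1 and 0 in Q4, so day 4 was the only case among the 8 genes in which Q4 held more. On day 14 the difference for Csf3r was small, at 3.46-fold (1.26 to 10.4), where S100a8 differed 60.9-fold (25.5 to 190). The pair S100a8 and S100a9 differed 70.4-fold on day 14, and 25.4-fold without the spots of 10 or more of their UMIs.

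**Figure D3:**
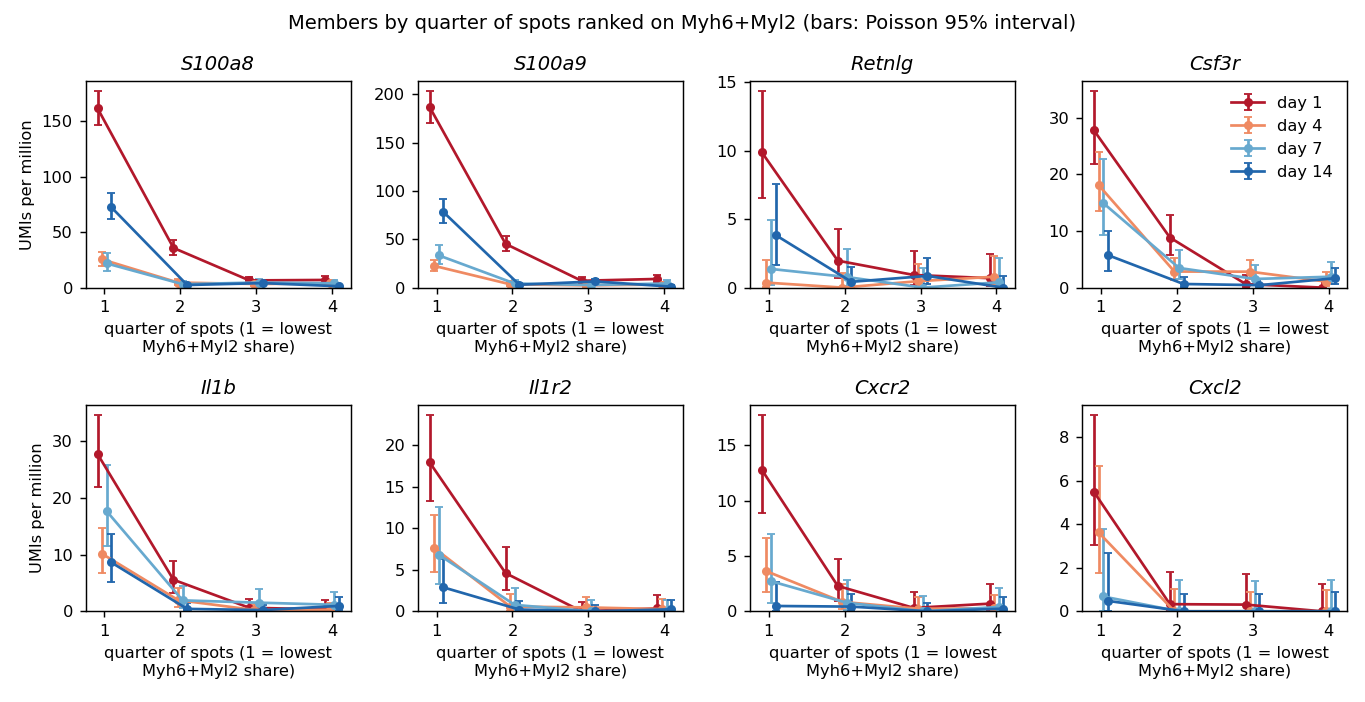
CPM (vertical axis, linear, different range per panel) of each gene by group of spots ranked on their Myh6+Myl2 share (horizontal axis, Q1 to Q4 as 1 to 4), one line per day, with exact Poisson 95% intervals as bars. The values fall from left to right for most genes and days, with S100a8 at 161.5 on day 1 and 72.5 on day 14 against 6.88 and 1.19 in Q4.

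Over the 4 sections, edgeR's quasi-likelihood test on UMIs summed per section and spot group, with the section as a block, found all 5 tested genes higher in Q1 than in Q4. The background was high: 27.6% of 11621 genes were called higher and 25.0% lower at an adjusted p under 0.05, and DESeq2 called 24.4% and 24.3%, so a call alone says little here. The median log2 fold change was 3.60 for the 5 genes against 0.07 for all genes. S100a8 was higher by 3.50 on the log2 scale (SE 0.58, adjusted p = 0.000284) and S100a9 by 3.60 (0.56, adjusted p = 0.000174). Il1r2 had the largest value of the 5, 4.38 (0.63, adjusted p = 5.37e-05), followed by Il1b with 3.77 (0.48, adjusted p = 2.15e-05) and Csf3r with 2.96 (0.60, adjusted p = 0.000825). Il1r2, Il1b and Csf3r met the minimum of 100 UMIs only with their Q1 UMIs counted (for Il1r2, 49, 21, 10 and 6 of 110). Their calls, and their part in the median of the 5 genes and in counts of calls, are therefore a description only.

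With genes of at least 10 UMIs in the fit, where edgeR called 24.1% of 15062 genes higher and 20.7% lower, the other 3 genes were called too. Cxcl2 had a log2 value of 5.51 (SE 1.08, adjusted p = 0.000568), Cxcr2 of 2.73 (0.56, adjusted p = 0.000619) and Retnlg of 2.21 (0.80, adjusted p = 0.0298). Cxcl2 met even this minimum only through Q1, which held 15 of its 17 day 1 UMIs in ranked spots and all on the later days. Total UMIs in place of TMM factors moved the median of all genes from 0.07 to 0.71 and the calls to 58.2% higher and 10.6% lower. The 5 genes kept their direction and call under each alternative in which they were tested, in 77 of 77 values. Il1r2 was tested in 12 alternatives and S100a9 in 17.

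Genes of the same pathways were examined from lists. Among neutrophil granule and surface genes, 10 of 28 had enough UMIs to be tested, of which 7 were higher in Q1 and 1, G0s2, was lower. Slpi, a protease inhibitor of neutrophils and epithelia, had a log2 value of 4.83 (SE 0.60, edgeR adjusted p = 2.81e-05), and Clec4d, a lectin receptor of myeloid cells, of 4.63 (0.40, adjusted p = 1.46e-06). Mmp9, gelatinase B, was higher by 3.53 and Clec4e by 3.15. Slpi and Clec4e met the UMI minimum only with their Q1 UMIs counted, so their calls and their part in the count are a description only. Slpi and Mmp9 were not highest on day 1. Slpi stood at 4.59, 4.17, 14.4 and 11.6 CPM on days 1, 4, 7 and 14, and Mmp9 at 13.8, 18.5, 6.46 and 2.14. Lcn2, which encodes lipocalin 2, was highest on day 1, at 103, 8.60, 2.82 and 3.64.

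In the interleukin 1 family, 4 of 10 listed genes (9 found) were tested and all 4 were higher in Q1. Il1rn, the receptor antagonist that competes with interleukin 1 beta, had a log2 value of 5.84 (SE 0.52, edgeR adjusted p = 1.84e-06), above that of Il1b itself. In Q4 it stood at only 0.344, 0.263, 0.384 and 0.238 CPM on days 1, 4, 7 and 14, so the size of its value is uncertain. Il33, an alarmin of stromal cells, was higher by 2.54, Il1r1, the signaling receptor, by 1.60, and its partner Il1rap by 1.34. Il1rn and Il1rap met the UMI minimum only with their Q1 UMIs counted, so their calls and their part in the count are a description only. Unlike Il1b, Il1rn was about as high on day 4 as on day 1, at 10.0, 10.9, 5.74 and 1.04 CPM on days 1, 4, 7 and 14. Il1a, which encodes the other interleukin 1 agonist, had 1 UMI in all, on day 7.

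Of the genes for interleukin 1 release and signaling, 10 of 15 tested were higher and none lower in Q1. Il6 and Ptgs2, targets of interleukin 1 signaling among other inputs, had log2 values of 7.33 (SE 0.97, edgeR adjusted p = 6.40e-05) and 5.66 (0.68, adjusted p = 1.50e-05). Il6 had no UMI in Q4 of any section, and Ptgs2 none there on days 7 and 14. The sizes of both values are therefore uncertain, and both genes met the UMI minimum only through Q1, so their calls are a description only. Nfkbiz was higher by 2.42 and Casp1, the protease that cuts pro-interleukin 1 beta, by 2.16. Casp1 and the kinase gene Irak4 also met that minimum only through Q1. Their calls, and the part of all such genes in the count, are a description only. The kinase gene Irak1 (-0.12) and Traf6 (-0.08) did not pass the test. Il6 shared the day 1 peak, with 64, 47, 6 and 3 UMIs on days 1, 4, 7 and 14.

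All 6 tested genes of the CXCR2 ligand and growth factor list were higher in Q1. The chemokines Cxcl3, Cxcl5 and Cxcl1, ligands of CXCR2 like Cxcl2, had log2 values of 7.30 (SE 0.88, edgeR adjusted p = 3.41e-05), 4.95 (0.49, adjusted p = 5.43e-06) and 3.39 (0.39, adjusted p = 1.06e-05). Cxcl3 had no UMI in Q4 of any section, so the size of its value is uncertain. Cxcl3 also met the UMI minimum only through Q1, so its call and its part in the count are a description only. Csf2rb, a shared cytokine receptor chain, was higher by 3.46. The ligands were highest on day 1, Cxcl5 at 40.0, 6.23, 6.74 and 1.56 CPM and Cxcl1 at 22.0, 4.11, 4.28 and 1.33 on days 1, 4, 7 and 14. Csf3, the ligand of the receptor encoded by Csf3r, had 1 UMI in all, on day 1.

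Of the S100A8/A9 receptor and S100 list, 5 of 6 tested genes were higher and 1 lower. S100a4 (2.95), S100a11 (2.05) and S100a6 (1.74) were higher in Q1, but each was spread more evenly over days than S100a8, S100a6 standing at 448, 378, 397 and 211 CPM. Tlr4, the receptor gene for S100A8, had a log2 value of 0.59 (SE 0.23, edgeR adjusted p = 0.0368). Cd36, a fatty acid transporter of endothelium and cardiomyocytes, had -1.80 (SE 0.28, edgeR adjusted p = 8.40e-05).

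Markers of other cell types differed between the same groups. At least Ly6c2 and Itga2b met the UMI minimum only through Q1, so their calls and their part in the counts are a description only. All 11 monocyte and macrophage markers were called higher in Q1, led by Plac8 (4.38), Ly6c2 (3.67) and Ccr2 (3.54), and their sum stood at 1244, 6502, 4615 and 1704 CPM there against 306 to 477 in Q4. Also called higher were 5 of 6 fibroblast, 2 of 2 platelet, 3 of 3 atrial and 5 of 5 skeletal muscle markers, with 2 of 4 endothelial markers lower. A call did not need a difference in every section: all 7057 UMIs of Myh1, a skeletal muscle myosin, lay on day 7, and Sln of the atrial markers had 209 UMIs there and 0, 1 and 2 on days 1, 4 and 14. The atrial calls (Sln, Nppa and Myl4) were each lost under some alternative, as were those of Myh1, Myh4, Tnnc2, Atp2a1, Itga2b, Lum, Kdr and Fabp4. Nppa also marks the border zone in the paper, so these calls do not place atrial tissue in Q1. Bpgm and Alas2 of the erythroid markers had 0.01 and -0.49, and Car3 led the 3 adipocyte markers with 3.15 (adjusted p = 0.0806). No lymphocyte marker reached the minimum for the test. The 6 cardiomyocyte markers were lower, which the ranking itself gives. The part of these cells in the differences of the 8 genes was not tested.

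**Figure D4:**
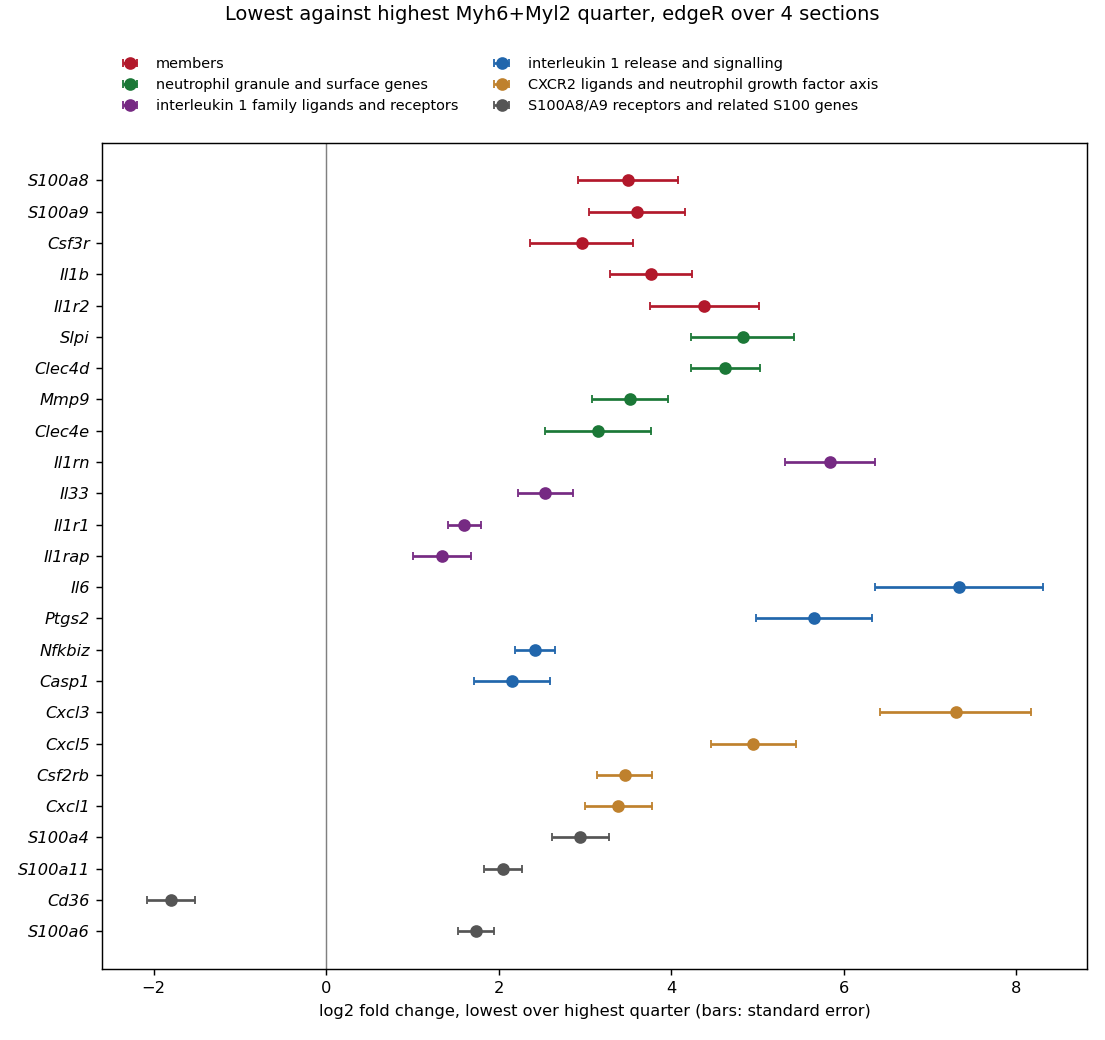
Log2 fold change of Q1 over Q4 (horizontal axis) from edgeR over 4 sections, with standard errors as bars, for the 5 tested genes and up to 4 genes from each pathway list, coloured by list. The 5 tested genes lie between 2.96 and 4.38, within the range of the other genes, and Cd36 alone is below 0.

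Across the 16 sums per section and spot group, the gene most like S100a8 of 11620 others was S100a9 (Pearson r = 0.985 of log2 values), and the reverse held. Next for S100a8 came Has1, a hyaluronan synthase gene, and Ly6c2, a marker of inflammatory monocytes, both with r = 0.92. For Csf3r it was Plek (0.96), for Il1b Rpl23a (0.956) and for Il1r2 Eprs (0.96), with Ptgs2 second (0.963). The sums share sections, depth and the ranking, so these values describe likeness over 16 points and carry no test.

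Within Q1, spots with one gene often held another. On day 1, S100a8 or S100a9 was found in 52 of 57 spots with an Il1b UMI (91.2%) and in 269 of 416 without (64.7%), with median depths of 7282 and 6243 UMIs. On day 4 the shares were 40.7% of 27 spots against 20.6%, on day 7 52.9% of 17 against 8.76%, and on day 14 53.3% of 15 against 10.3%. Il1b spots had the higher share in each section. Csf3r spots did so on days 1, 7 and 14 (81.8%, 44.4% and 30.0% against 65.6%, 9.01% and 11.1%) but not on day 4 (17.8% of 45 against 22.4%). Depth differed between the spots and its part was not tested.

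Spots with more than 1% hemoglobin UMIs, the mark of blood in a section, were set against the other spots, with hemoglobin genes left out of the totals. There were 261, 347, 336 and 655 such spots on days 1, 4, 7 and 14, with median depths of 2308, 2646, 5108.5 and 1164 UMIs against 6410, 8799, 5188 and 8310.5 in the others. S100a8 stood at 82.0, 10.2, 18.8 and 17.4 CPM in the hemoglobin-rich spots and at 49.6, 7.95, 6.69 and 11.9 in the others on days 1, 4, 7 and 14. S100a9 stood at 115, 11.9, 25.4 and 9.67 in the former and at 58.5, 6.70, 8.42 and 13.5 in the latter. S100a8 was higher in hemoglobin-rich spots in all 4 sections, and S100a9 in all but day 14. Before thinning, the share of spots with either gene was higher there on day 14 alone, at 26.1%, 7.20%, 4.76% and 5.65% of the shallower hemoglobin-rich spots and 28.0%, 8.64%, 4.87% and 4.75% of the others. Thinned to 1000 UMIs, the share was higher in hemoglobin-rich spots in each section, at 14.6%, 2.36%, 2.20% and 2.13% against 9.44%, 1.75%, 1.58% and 1.75%. For thinning, hemoglobin UMIs stayed in the totals and spots under 1000 UMIs were left out. The thinned shares therefore cover fewer spots than the shares before thinning.

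Retnlg was the gene most tilted toward hemoglobin-rich spots on day 1, at 17 against 3.18 CPM, a ratio of 5.35 (exact conditional 95% interval 2.47 to 10.7) from 11 and 38 UMIs. On day 14 it had none there and 14 UMIs elsewhere. Csf3r had ratios of 1.41, 1.12, 0.560 and 4.21 on days 1, 4, 7 and 14, of which day 14 alone had an interval above 1 (1.80 to 9.14). Il1b lay below 1 in all 4 sections (0.770, 0.656, 0.442 and 0.809), with intervals that all included 1. Of the alarmin ratios, those of days 1 and 7 had intervals above 1 for both genes (S100a8 1.65 and 2.80, S100a9 1.96 and 3.02).

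**Figure D5:**
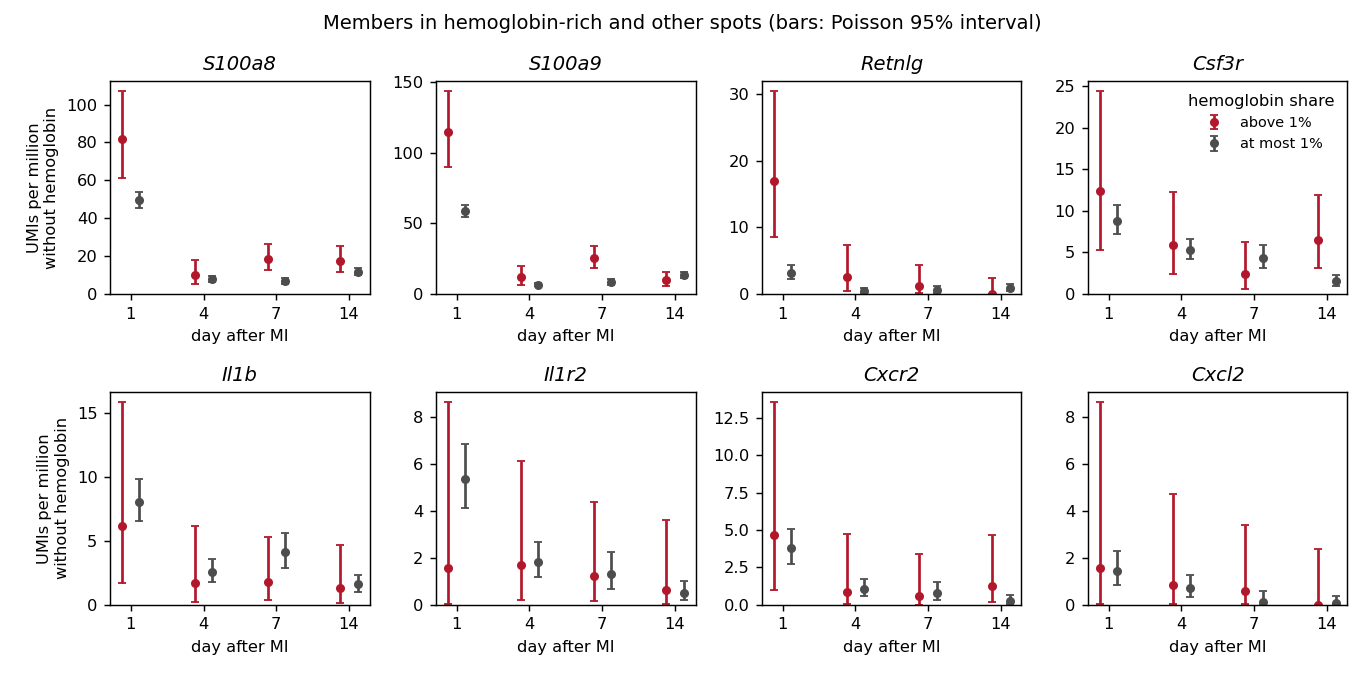
CPM without hemoglobin genes (vertical axis, linear, different range per panel) of each gene in spots above 1% hemoglobin (red) and in the other spots (gray) by day after MI (horizontal axis), with exact Poisson 95% intervals as bars. S100a8 lies at 82.0 against 49.6 on day 1 and at 18.8 against 6.69 on day 7, and the intervals of Il1b overlap on every day.

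Over the 4 sections, edgeR called 1 of the 5 tested genes, S100a8, with 0.87 on the log2 scale (SE 0.18, adjusted p = 0.00601), against 0.28% of 11779 genes called higher and 0.0% lower (332 and 238 at an unadjusted p under 0.05). DESeq2 called 22 genes higher (0.187%) and 0 lower, and S100a8 did not pass there (adjusted p = 0.224). S100a9 had a similar value, 0.91, with a larger error (0.37, adjusted p = 0.9992). Csf3r had 0.56, Il1b -0.56 and Il1r2 -0.39, each with an adjusted p of 0.9992. The S100a8 call was lost without day 1 (edgeR adjusted p = 0.535), without day 4 (0.0742) and without day 7 (0.170), with total UMIs in place of TMM factors (0.403, 0.0934% of genes higher) and with hemoglobin limits of 0.5% (0.973) and 2% (0.145). S100a8 stayed positive in these fits, between 0.51 and 1.58. With genes of at least 10 UMIs, edgeR called S100a8 (0.83) and S100a9 (0.87, adjusted p = 0.000524), with 0.375% of genes higher and 0.0723% lower, and Retnlg had 1.75 (SE 0.56, adjusted p = 0.227).

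The few spots rich in S100a8 and S100a9 bear on this comparison. On day 7, 1 hemoglobin-rich spot held 37 of the 73 S100a8 and S100a9 UMIs of its class, and without it the ratio for the pair fell from 2.92 to 1.45. On day 14 the 6 rich spots all lay outside the hemoglobin-rich class, and without them the ratio rose from 1.07 to 2.72. On days 1 and 4 the ratio without such spots was 1.91 and 1.5. These spots were picked by the counts of the same genes, so the ratios without them are a description only.

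Among the lists, Ppbp, a CXCR2 ligand of platelets, was higher in hemoglobin-rich spots (log2 value 2.74, SE 0.38, edgeR adjusted p = 2.64e-06). Ppbp met the UMI minimum only with its UMIs in hemoglobin-rich spots counted, so its call is a description only. Slpi was higher there by 1.46 (SE 0.22, edgeR adjusted p = 1.34e-05). None of the 11 monocyte and macrophage markers was called, and their median was 0.24. Csf1r had 0.40 (adjusted p = 0.360) and Ly6c2 0.77 (adjusted p = 0.9992), whereas Ccr2 had -0.23 and Plac8 -0.05. Of the erythroid markers, Bpgm was called (1.49, adjusted p = 0.000436) and Alas2 was not (4.55, adjusted p = 0.525).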

How the data were processed

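Visium libraries of 4 heart sections, 1 mouse each on days 1, 4, 7 and 14 after MI, were analysed from the UMI count matrices that the authors deposited. Per the labels and methods, the authors aligned reads with Space Ranger 1.3.0 to mm10, aligned images by hand and kept the spots under tissue. The submitters' processing notes also list Seurat 4.1.1. The study removed hemoglobin-rich and edge spots, whereas here all deposited spots were read, and images and spot positions were not used here. The day of the first section follows the labels.

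The 8 genes and all lists were chosen with earlier results of these data known. Levels are UMIs per 1000000 UMIs (CPM), with exact Poisson, exact conditional or Clopper-Pearson 95% intervals. Intervals cover counting error only, and 3 counts stand for the upper limit of a count of 0. Because each day has 1 mouse, days were not tested, and section and mouse cannot be told apart from day.

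UMIs were summed per section and spot group (16 libraries) or hemoglobin class (8 libraries, totals without the 8 hemoglobin genes). Genes with at least 100 UMIs were fitted with edgeR 4.0.16 (R 4.3.3, TMM, robust quasi-likelihood, section as a block), with Benjamini-Hochberg adjustment over all genes tested and a threshold of 0.05. Each section comes from another day, and a large difference in 1 section can be enough for a call. DESeq2 1.42.0 was an alternative. On simulated counts with 200 genes changed 4-fold, 193 were recovered for the spot groups among 11621 genes, with 5 false of 198 calls, and 188 for the hemoglobin classes among 11779 genes, with 13 false of 201. The simulated libraries shared the same mean profile and spread, without differences between days, and as many genes were raised as lowered. Few genes changed there, unlike between the spot groups, so these counts do not show how many calls in the data are false.

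All 8 genes are named, and from each list up to 4 called genes with the largest absolute log2 fold change. Others named were chosen after their values were seen. Likeness is Pearson's r of log2(CPM + 1). Alternatives were total UMIs, other UMI minimums (10, 1000 and none), deeper spots, no section block, each section left out, other hemoglobin limits and thinning to 1000 or 2000 UMIs. Leaving out skeletal muscle spots or spots with 10 or more S100a8 and S100a9 UMIs was added after seeing the data. Python 3.11.15 with numpy 2.4.6, scipy 1.17.1 and pandas 2.3.3 was used for the rest, and sequences came from RefSeq tables of GRCm38.p6, with gene positions from GENCODE M21 matched by gene ID for all 8 genes.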

Additional observations from a re-analysis of the deposited data

How the results depend on the processing

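Each day has 1 section of 1 mouse, low counts limit Retnlg, Cxcr2 and Cxcl2, and depth differs between spot groups. No paired analysis was possible between days because each day has 1 sample and its replicate number only names it, while spot groups and hemoglobin classes were compared within sections, with the section as a block. In Q1 against Q4, the 5 tested genes kept direction and call in 77 of 77 values, with S100a8 between 2.89 and 4.39 and Il1b between 3.17 and 5.38 on the log2 scale. Il1r2, Il1b and Csf3r met the UMI minimum only through Q1, so their part in that count is a description only. The count of genes higher was 6762 with total UMIs and 1679 with at least 1000 UMIs per gene, and 2103 to 3036 with a section left out (2103 without day 4). The count of genes lower was 1237 with total UMIs, 1548 with at least 1000 UMIs and 1869 with only Q1 and Q4 fitted. Of the 8 genes, 8 were called with at least 10 UMIs (3635 of 15062 genes were called higher) or no filter (3323 of 19176). With at least 1000 UMIs, 1 was called, the only one tested, against 1679 of 4769 genes. Cxcl2 met even the minimum of 10 UMIs only through Q1, so its part in these counts is a description only. With a section left out, 4 to 5 were called, which were all those tested. Of 682 values of list genes, 32 lost their call, and the part of list genes that met the UMI minimum only through Q1 is a description only.

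Between hemoglobin classes, the genes called higher numbered 11 with total UMIs, 57 with at least 10 UMIs, 3 with at least 1000 UMIs, 52 with no filter, 3 without the section block, 11 at a hemoglobin limit of 0.5%, and 10 to 34 with a section left out (13 without day 1, 10 without day 4). The genes called lower numbered 11 with at least 10 UMIs, 10 with no filter, 11 with spots of at least 1000 UMIs, 5 at a limit of 2%, and 0 to 16 with a section left out (16 without day 14). Of the 8 genes, 0 were called with DESeq2, total UMIs, at least 1000 UMIs, no section block or a limit of 0.5% or 2%, and 2 with at least 10 UMIs, no filter or without the spots rich in S100a8 and S100a9, which were picked by the counts of these genes, so that count supports nothing. With a section left out, 0 to 2 were called (0 without days 1, 4 or 7 and 2 without day 14). At the limit of 2%, Il1b and Il1r2 turned from negative to 0.11 and 0.031. The causes were not tested.

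Thinned to 1000 UMIs, S100a8 or S100a9 was found in 10.0%, 1.86%, 1.67% and 1.81% of spots on days 1, 4, 7 and 14, and thinned to 2000 UMIs in 14.8%, 3.33%, 2.47% and 1.62%. Each thinning left out the spots with fewer UMIs than its depth. Of 144 ratios between days, 133 stayed within their interval and 11 moved. In Q1 alone day 1 over day 14 was 2.23 for S100a8 and 2.39 for S100a9.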
